A study of Mus musculus with 2 samples.

Results

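The genes described here are 10 genes of the antioxidant defense, a set that joins known targets of the transcription factor Nrf2 with further antioxidant enzymes: Nqo1, Hmox1, Gclc, Gclm, Txnrd1, Srxn1, Gpx1, Gpx2, Gpx4 and Prdx1. They were chosen by name, of 14679 genes with a value on the arrays, and all 10 were found through the RefSeq accession of their probes. Whole colon of 8-week-old mice was compared between Villin-Cre controls and Villin-Cre; EP4flox/flox mice (EP4 cKO), both of the strain C57BL/6 and both carrying the Cre transgene. In the EP4 cKO mice, Cre made under the villin promoter in the intestinal epithelium deletes the floxed segment of Ptger4, which encodes the prostaglandin E2 receptor EP4, while the other cells of the colon keep it. The RNA of each genotype was hybridized to 1 Agilent array with 1 colour (Cy3), and by the labels it was combined from 3 pools of colon. Every value below therefore compares a single pair of arrays, with no replicate to check it and no p-value.

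Nrf2 is held in the cytoplasm by its partner Keap1, which hands it to a ubiquitin ligase for destruction. Oxidants and electrophiles modify Keap1, so that Nrf2 is spared, enters the nucleus, pairs with a small Maf protein and binds the antioxidant response element of its target genes. The targets detoxify quinones, make glutathione, and keep the thioredoxin and peroxiredoxin systems in their reduced form. The colonic epithelium lies against a lumen rich in reactive compounds and is one of the tissues where this defense is known to be active, with Gpx2 as its characteristic glutathione peroxidase.

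The promoters of the genes are shown because the antioxidant response element is the sequence the genes may share. Windows running from 250 bases before to 50 bases after an annotated transcription start (RefSeq, GRCm38.p6) were searched on both strands for the core of the element, TGACNNNGC, and for TGANTCA, the letters bound by AP-1 factors, which can overlap the core. Of the 10 genes, 8 had at least 1 window (13 windows in all), and Hmox1 and Gclc had none in the table used. The core was found in 4 windows, of Srxn1, Gclm, Prdx1 and Txnrd1 (1 of its 3 windows), while 12.4% of all 32851 windows held it. TGANTCA was found in 2 windows, of Srxn1 and Prdx1, and in 7.81% of all windows. One of the 2 windows of Me1, a gene of the wider pathway described further on, is printed with them; its other window held neither motif. Of the other pathway genes past 2-fold described there, Gsta3 had the core at -121 to -113, the windows of Cbr3 and Chac1 held neither motif, and Gsta4 had none in the table used. All are given 5′ to 3′ along the strand of the gene, with both motifs in capitals.
Srxn1 (chr2:152105274-152105573, plus strand): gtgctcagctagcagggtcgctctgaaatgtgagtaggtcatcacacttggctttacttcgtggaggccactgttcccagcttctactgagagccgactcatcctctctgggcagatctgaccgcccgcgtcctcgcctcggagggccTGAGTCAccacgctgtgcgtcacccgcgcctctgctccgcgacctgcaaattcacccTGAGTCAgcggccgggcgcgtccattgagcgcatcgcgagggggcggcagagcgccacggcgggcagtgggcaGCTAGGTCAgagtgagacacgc
Gclm (chr3:122245307-122245606, plus strand): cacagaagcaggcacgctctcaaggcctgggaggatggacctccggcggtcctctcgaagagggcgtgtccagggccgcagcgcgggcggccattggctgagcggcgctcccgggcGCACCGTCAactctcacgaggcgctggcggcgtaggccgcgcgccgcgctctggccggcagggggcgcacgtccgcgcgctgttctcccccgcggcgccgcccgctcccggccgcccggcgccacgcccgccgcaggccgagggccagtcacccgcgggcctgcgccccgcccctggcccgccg
Prdx1 (chr4:116685349-116685648, plus strand): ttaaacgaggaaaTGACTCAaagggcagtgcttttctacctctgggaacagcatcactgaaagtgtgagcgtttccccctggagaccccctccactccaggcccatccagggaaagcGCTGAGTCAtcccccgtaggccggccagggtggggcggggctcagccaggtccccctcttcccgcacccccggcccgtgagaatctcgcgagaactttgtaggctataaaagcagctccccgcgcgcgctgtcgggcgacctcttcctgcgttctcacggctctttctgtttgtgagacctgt
Txnrd1 (chr10:82858956-82859255, plus strand): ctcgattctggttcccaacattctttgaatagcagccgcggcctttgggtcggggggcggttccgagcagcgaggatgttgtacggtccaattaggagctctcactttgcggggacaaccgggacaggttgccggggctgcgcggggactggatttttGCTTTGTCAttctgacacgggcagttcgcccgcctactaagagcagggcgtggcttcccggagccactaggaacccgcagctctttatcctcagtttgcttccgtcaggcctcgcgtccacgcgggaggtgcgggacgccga
Me1 (chr9:86695865-86696164, minus strand): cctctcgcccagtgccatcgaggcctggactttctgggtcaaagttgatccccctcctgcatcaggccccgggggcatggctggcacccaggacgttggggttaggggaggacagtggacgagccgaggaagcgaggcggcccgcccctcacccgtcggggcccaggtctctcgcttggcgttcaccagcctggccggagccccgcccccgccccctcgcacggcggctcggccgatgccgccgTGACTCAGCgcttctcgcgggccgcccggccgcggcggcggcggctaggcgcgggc
Positions are counted from the transcription start, whose first base is 1. In Prdx1 the core lay at -133 to -125 on the opposite strand and overlapped the match of TGANTCA at -131 to -125, and a further match of TGANTCA lay at -237 to -231. In Srxn1 the matches of TGANTCA lay at -102 to -96 and -45 to -39, apart from the core, which lay after the start at 29 to 37 on the opposite strand. The letters from -45 read TGAGTCAgc. They differ from the searched form of the core only in having G in place of C, and so were not counted as a core. The core lay at -134 to -126 in Gclm and at -92 to -84 in Txnrd1, both on the opposite strand. In Me1 the core ran across the start, from -6 to 3, and overlapped the match of TGANTCA at -6 to 1. The windows of Nqo1, Gpx1, Gpx2 and Gpx4 held neither motif. A match of letters is not a site of binding, and an element outside these windows was not searched.

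The signals are scanner intensities that the scanner software had corrected for background, scaled here so that the trimmed mean of each array was 2500, as in the methods of the study. Each ratio divides EP4 cKO by Villin-Cre and is given on the log2 scale, where 1 stands for 2-fold. Where a pair of signals is given for a gene, the array labelled Villin-Cre comes first. The 10 genes had 13 probes, and all 13 were well above background on both arrays, so no value of these genes is a bound. Each error given for a ratio combines the error that the software assigned to the spot on each array, about 10% of the signal. It describes the measurement of a spot and not the spread between mice. Over the 13 probes it ran only from 0.204 to 0.227 on the log2 scale. A cut at 2 errors is therefore close to a fixed fold threshold for these genes.

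On the array labelled EP4 cKO all 10 genes, and all 13 of their probes, had a higher normalized signal than on the array labelled Villin-Cre. Among all 14679 genes with a value, 36.3% had a log2 ratio above 0. That share depends on the scaling, as given further on, and in the deciles of mean signal that hold the 10 genes it ran from 32.3% to 48.1%. None of the 10 genes was more than 2-fold higher, which 4.88% of all genes were, and none was more than 2-fold lower, which 7.98% of all genes were. The log2 ratios of the 10 genes ran from 0.16 to 0.92 with a median of 0.25, beside a median of -0.10 over all genes. Past 1.5-fold lay 3 of the 10, Srxn1, Hmox1 and Nqo1, against 9.86% of all genes, and none was more than 1.5-fold lower, which 18.7% of all genes were.

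**Figure D1:**
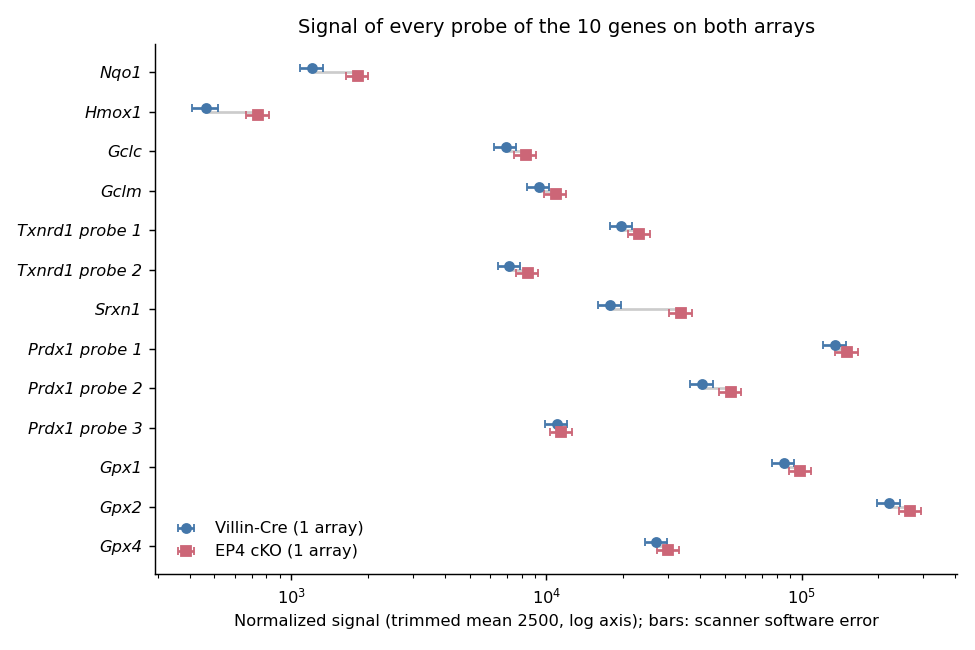
Normalized signal (horizontal log axis) of each of the 13 probes on the Villin-Cre array (circles) and the EP4 cKO array (squares), with bars for the error given by the scanner software. The EP4 cKO signal is the higher for all 13 probes, and the bars of both arrays are apart for Srxn1, Hmox1, Nqo1 and the second probe of Prdx1.

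Ptger4 itself was read by 2 probes. The brighter one gave a signal of 6227 (array labelled Villin-Cre) against 5661 (labelled EP4 cKO), with a ratio of -0.14 on the log2 scale. The other, dimmer one gave 393 and 592 (0.59). The brighter probe was at 0.02 with scaling to the 75th percentile and at 0.76 with scaling to the E1A control spots. The targeted gene therefore does not check which array is which, and the directions given here rest on the labels.

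Among the enzymes that act on quinones and heme, Nqo1, which reduces quinones without releasing semiquinone radicals, gave a signal of 1206 (array labelled Villin-Cre) against 1821 (labelled EP4 cKO). Its log2 ratio was 0.59 with an error of 0.21, or 1.51-fold. Hmox1, the inducible heme oxygenase that breaks heme down to biliverdin, iron and carbon monoxide, had signals of 463 and 740. Its log2 ratio was 0.68 with an error of 0.23, or 1.60-fold. Both genes had ratios of more than 2 times their error, as had 13.2% of the 12808 genes well above background on both arrays. Dim genes tended to have lower ratios on these arrays: the genes in the same decile of mean signal had a median log2 ratio of -0.23 beside Hmox1 and -0.18 beside Nqo1. Thus Hmox1 stood 0.91 and Nqo1 0.77 above the median of genes of like signal.

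Glutathione synthesis was represented by the subunits of its rate-limiting enzyme, glutamate-cysteine ligase. The catalytic subunit Gclc gave a signal of 6926 (array labelled Villin-Cre) against 8310 (labelled EP4 cKO), a log2 ratio of 0.26. The modifier subunit Gclm had 9349 and 10865, a log2 ratio of 0.22. Both ratios had an error of 0.20 and were within 2 errors of 0 with this scaling, but Gclc was past them at the 75th percentile (0.42) and both were with the E1A spots. The subunits differed from each other by less than that error.

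In the thioredoxin and peroxiredoxin cycle, Srxn1 had the highest log2 ratio of the 10 genes. Srxn1 encodes sulfiredoxin, which restores peroxiredoxins whose active cysteine has been overoxidized. Its normalized signal was 17749 (array labelled Villin-Cre) against 33684 (labelled EP4 cKO), a log2 ratio of 0.92 with an error of 0.20, or 1.90-fold. Of all genes with a value, 826 (5.63%) had a higher ratio than Srxn1. It passed 2-fold with scaling to the 75th percentile (log2 ratio 1.08), with a trimmed mean taken over all spots (1.04) and with scaling to the E1A control spots (1.82).

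Txnrd1, the cytosolic selenoenzyme that reduces thioredoxin, was read by 2 probes that gave the same ratio. The brighter had normalized signals of 19639 and 23151 and the dimmer 7150 and 8452, each with a log2 ratio of 0.24 and an error of 0.20. Prdx1, an abundant peroxiredoxin that removes hydrogen peroxide and is the substrate of sulfiredoxin, was read by 3 probes. From the brightest to the dimmest, their signals were 135209 and 150799 (log2 ratio 0.16), 40774 and 52715 (0.37), and 10973 and 11460 (0.06). The probes of Prdx1 spanned 0.31 on the log2 scale, beside a median span of 0.24 between the probes of a gene over 4103 genes with at least 2 probes well above background on both arrays. All 3 had ratios above 0, and none reached 2 errors.

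The glutathione peroxidases, selenoenzymes that reduce peroxides with glutathione, are given next. Gpx2, the form found mainly in the gastrointestinal epithelium, had normalized signals of 220355 and 267044, a log2 ratio of 0.28. Gpx1, the ubiquitous cytosolic form, had 85230 and 98894, a log2 ratio of 0.21. Gpx4, which reduces lipid hydroperoxides in membranes and guards cells against ferroptosis, had 26975 and 30044, a log2 ratio of 0.16. Each of these ratios had an error of 0.20. Gpx2 stood 0.12 above Gpx4, less than the combined error of 0.29, but 0.40 above it after normexp with quantile normalization, which is more than that error.

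In sum over the 10 genes, the ratios of Srxn1, Hmox1 and Nqo1 exceeded 2 errors, and those of the other 7, from 0.16 to 0.28, did not (13.2% of genes on both arrays exceeded 2 errors upward). This split depends on the scaling. At the 75th percentile Gpx2 and Gclc joined (5 of 10, against 19.5% of genes), after normexp with quantile normalization Gpx2 did (4 of 10, against 14.7%), and with the E1A spots all 10 passed (against 75.1%). With the trimmed mean, Prdx1 and Gpx4 were within 1 error of 0. Neighbours in the order from Gpx2 through Gclc, Txnrd1, Gclm, Gpx1 and Prdx1 to Gpx4 differed by less than the error of a ratio with this scaling, as did Srxn1 from Hmox1 if the errors of both are counted, and Hmox1 from Nqo1. All 10 stood above the median ratio of the genes in their own decile of mean signal, by 0.18 (Prdx1) to 0.96 (Srxn1). Spots of the same probe varied far less than the software's error: over 287 probes with at least 6 spots the median SD of the log2 ratio was 0.034.

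**Figure D2:**
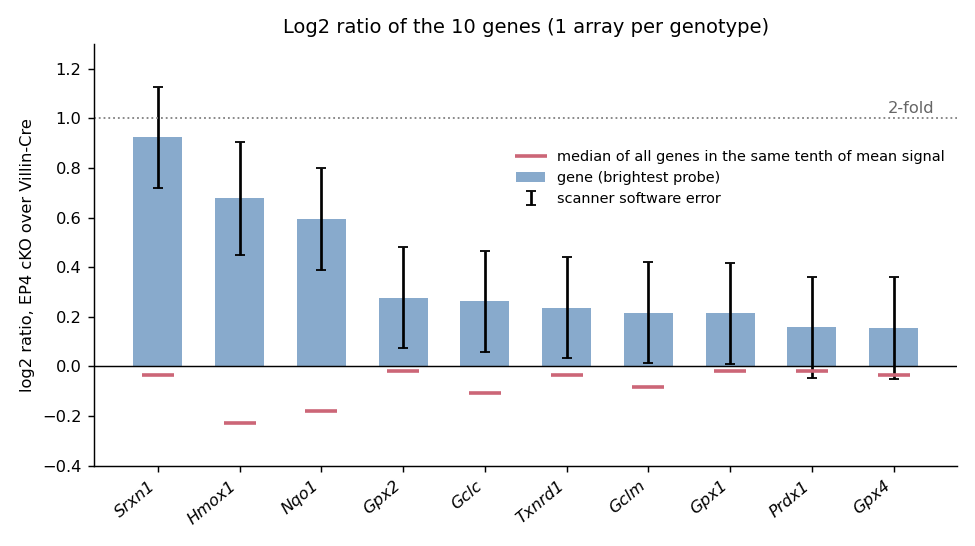
Log2 ratio of the brightest probe of each gene (bars, vertical axis; error bars are the scanner software's error) with the median log2 ratio of all genes in the same decile of mean signal (red dashes). Srxn1 (0.92), Hmox1 (0.68) and Nqo1 (0.59) stand above the other 7 genes (0.16 to 0.28), and every bar ends above its red dash.

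The size of these values depends on the scaling between the arrays. Genes that both arrays measured well above background centred on a log2 ratio of -0.15 (median). This centre moved up by 0.16 when the 75th percentile was used, by 0.13 after normexp with quantile normalization, and with the other scalings by 0.14 (loess on signal), 0.12 (trimmed mean over all spots) and 0.90 (E1A control spots). Under each of these all 10 genes stayed above 0 and above the median of these genes. The share of all genes above 0 was then 48.9% (75th percentile), 50.1% (normexp with quantile normalization), 52.9% (loess), 45.6% (trimmed mean over all spots) and 90.1% (E1A spots). A change of the scaling factor alone shifts all genes well above background on both arrays alike. It cannot move such a gene among the others of that kind, whereas normexp and loess can. Genes whose bound is taken as 0 can stay at 0 and so change their place. The median of the 10 genes was compared with that of all genes well above background on both arrays. It stood 0.40 above that median with the trimmed mean, 0.41 after normexp with quantile normalization and 0.32 after loess. Single genes moved more: after normexp with quantile normalization Gpx4 stood 0.11 above that median in place of 0.31, and Hmox1 0.59 in place of 0.83. With the E1A spots all 10 were more than 2-fold higher, as were 29.5% of all genes.

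**Figure D3:**
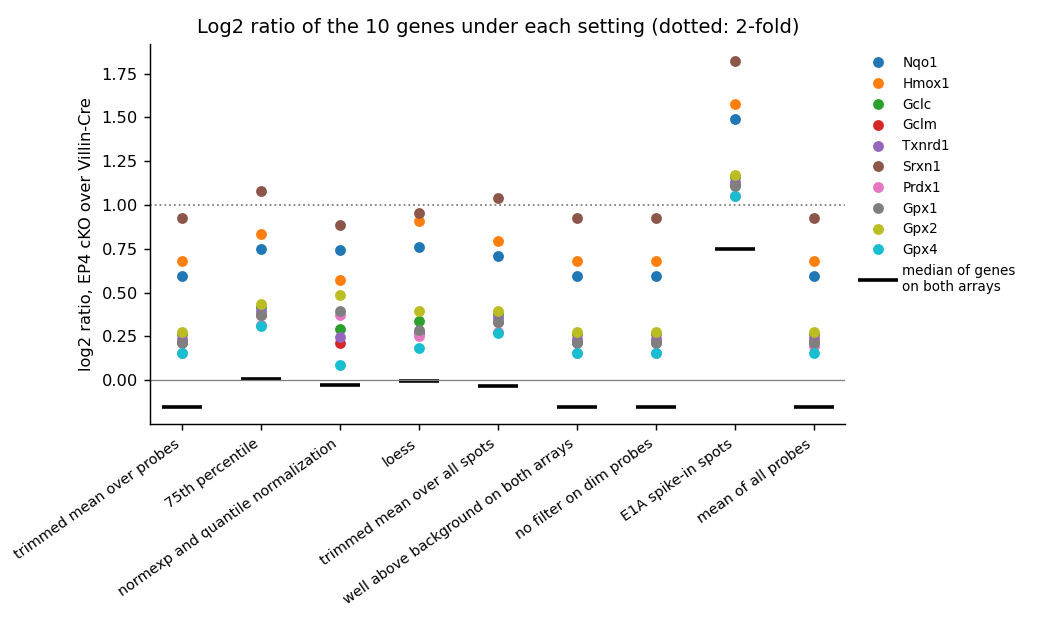
Log2 ratio of the 10 genes (coloured points, vertical axis) under each scaling or filter (horizontal axis), with the median of all genes well above background on both arrays as a black dash. All 10 points lie above the dash under every setting shown, and their order and distance from it differ after normexp with quantile normalization and after loess.

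For the wider pathway, 8 lists with 80 further genes were used, of which 78 had a value. Of these, 5 (6.41%) passed 2-fold upward in EP4 cKO by the labels, against 4.88% of all genes. Downward 0 passed it, against 7.98%. Of the 5, Me1 and Chac1 were well above background only on the EP4 cKO array. With both arrays required, 3 of 74 passed it upward, against 4.05% of all genes, which is no excess. Downward it was still 0, against 6.27%. The median log2 ratio of the 78 was 0.01, beside -0.10 over all genes. Of the 78, 41 (52.6%) were above 0, against 36.3% of all genes. The share above 0 was 64.1% at the 75th percentile (48.9% of all genes) and 59.0% with a trimmed mean over all spots (45.6%). It was 62.8% after normexp with quantile normalization (50.1%) and 61.5% after loess (52.9%). With the E1A spots all 78 were above 0, as were 90.1% of all genes.

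Nrf2 and its regulators (10 genes) had a median log2 ratio of 0.12, and all 10 were within 2-fold. The gene of Nrf2 itself, Nfe2l2, had normalized signals of 14387 and 15096, a log2 ratio of 0.07, and Keap1 had 5035 and 6072, a log2 ratio of 0.27; both were chosen for naming as the core of the pathway. The largest change was that of Maff, a small Maf protein, with 2015 and 3334 and a log2 ratio of 0.73. Nrf2 is regulated mainly through its protein, which an array does not measure.

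Other Nrf2 targets (21 of 22 genes with a value) had a median log2 ratio of 0.17, with 14 of the 21 above 0 (36.3% of all genes were), and 4 passed 2-fold, all of them upward. The median and the count above 0 moved with the scaling, as did the share of all genes above 0. They were 0.08 and 12 of 19 when both arrays had to pass the filter (37.0% of all genes), 0.33 and 17 of 21 at the 75th percentile (48.9%), and 0.33 and 17 of 21 after normexp with quantile normalization (50.1%). They were 0.29 and 17 of 21 with a trimmed mean over all spots (45.6%), and 0.21 and 17 of 21 after loess (52.9%). With the E1A spots they were 1.07 and 21 of 21 (90.1%). Me1, the cytosolic malic enzyme that makes NADPH, had 2 probes, which gave 30.1 and 30.3 for Villin-Cre, neither of which passed as well above background. For EP4 cKO they had 2195 and 522, so that Me1 was at least 17.5-fold higher by the brighter probe and at least 4.16-fold by the dimmer. For the brighter probe the value was 8.41-fold after normexp with quantile normalization, and the mean of both probes was 8.54-fold. The bounds hold the dim side at 125, the lowest normalized signal that passed as well above background for Villin-Cre. Cbr3, a carbonyl reductase, had 26871 and 65019 (log2 ratio 1.27, 2.42-fold), and Gsta4, a glutathione transferase that conjugates lipid aldehydes, had 1602 and 3355 (1.07). Gsta3, another glutathione transferase, had 7811 and 15913 (1.03, and 0.94 as the mean of its probes, within 2-fold). 

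Other glutathione cycle genes (8 genes) had a median log2 ratio of 0.09, and 1 of them was more than 2-fold higher. That was Chac1, which degrades glutathione and is known as a target of the stress factor Atf4. It had 117 for Villin-Cre, not well above background, and 1371 for EP4 cKO, at least 10.9-fold higher (5.56-fold after normexp with quantile normalization).

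The remaining lists held no gene past 2-fold in either direction. Other peroxidases and catalase (8 of 9 genes with a value) had a median log2 ratio of 0.16, and the largest change was that of Gpx7, with 152 and 281 (0.88, and past 2-fold with scaling to the 75th percentile, loess, all spots or the E1A spots). The superoxide dismutases and their copper chaperone (4 genes) had a median of -0.17, with the largest change in Sod2, the mitochondrial form, with 3720 and 2689 (-0.47). Other thioredoxin and glutaredoxin genes (9 genes) also had -0.16, with Glrx at 6057 and 9220 (0.61) as the largest change. With scaling to the 75th percentile the medians of these last 2 lists were -0.01 and -0.01, and with the E1A spots they turned to 0.73 and 0.73. Both stayed close to the median of all genes well above background on both arrays. That was -0.15 with the trimmed mean, 0.01 at the 75th percentile and 0.75 with the E1A spots.

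Since Txnrd1 and the glutathione peroxidases contain selenocysteine, the genes that build selenoproteins and the other selenoproteins were listed as well. Selenoprotein synthesis (7 genes) had a median log2 ratio of -0.14, close to the -0.15 of all genes well above background on both arrays. The largest change was that of Eefsec, the elongation factor that delivers selenocysteine, at 2079 and 1451 (-0.52). With scaling to the 75th percentile the median of this list was 0.02. Other selenoproteins (11 genes) had a median of 0.13, and the largest change was that of Selenow, at 21701 and 11929 (-0.86). The 4 selenoproteins among the 10 genes, at 0.16 to 0.28, were within the range of the other selenoproteins, which ran from -0.86 to 0.41.

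**Figure D4:**
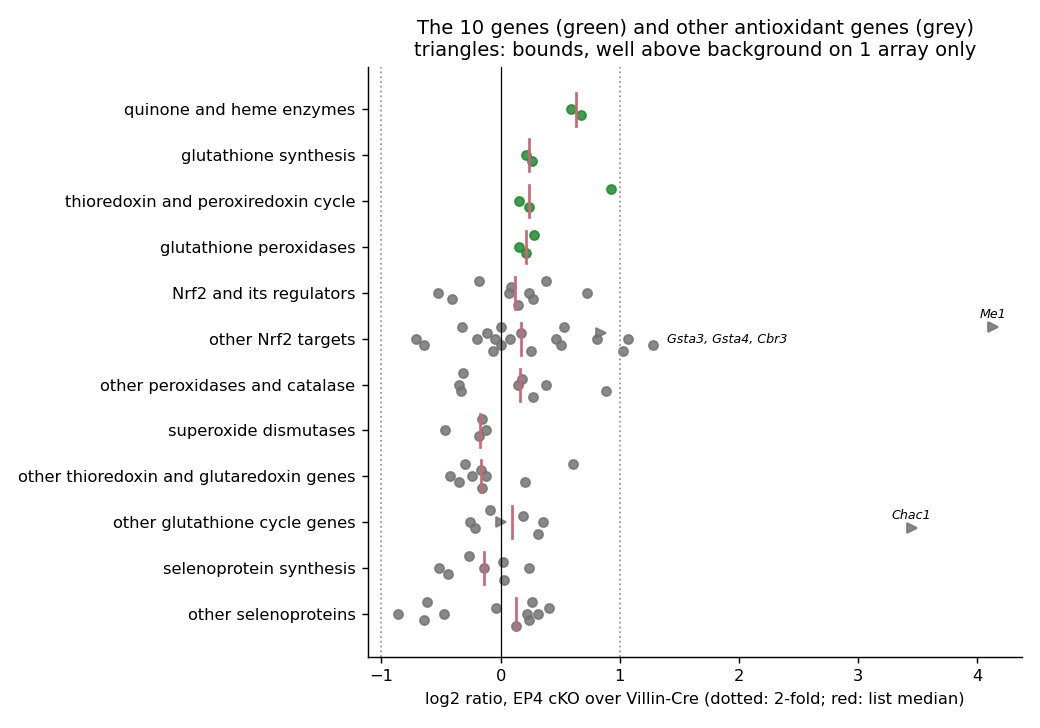
Log2 ratio (horizontal axis) of the 10 genes by role (green) and of the 78 other pathway genes by list (grey), with the median of each list as a red line, 2-fold as dotted lines and bounds as triangles. All green points lie between 0.16 and 0.92, while the grey points fall on both sides of 0 with this scaling and 5 of them (Me1, Chac1, Cbr3, Gsta4 and Gsta3) lie past 2-fold.

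The tissue was whole colon, and markers of its cell types moved on the same arrays. In bulk RNA, fewer cells of a type and less RNA per cell cannot be told apart. All 10 epithelial markers were well above background on both arrays, 7 of them with a log2 ratio above 0, and their summed signal was 2687835 (array labelled Villin-Cre) against 3197956 (labelled EP4 cKO), a log2 ratio of 0.25. Most of that difference was Krt20, a keratin of mature surface cells and the only one of these past 2-fold, with 146575 and 510711. Without Krt20 the other 9 summed to 2541259 and 2687247, a log2 ratio of 0.08. A sum follows its brightest markers. The median log2 ratio of the 10 markers was 0.21, beside 0.25 for the 10 antioxidant genes. Fibroblast markers were more than 2-fold lower for 7 of 7 genes with a value (of 8; 6 of 7 under each of the other 5 scalings), among them Dcn with 6006 and 110, and erythroid markers for 3 of 3 with a value (of 6), among them the alpha globin gene Hba-a1 with 112282 and 4216. Smooth muscle markers were mixed: of 7 with a value, 4 had a log2 ratio above 0 and 2 below. Their median was 0.38, or 0.02 when the probes of each gene were averaged. The highest was Mylk (0.86), and 0 were more than 2-fold higher. Cnn1, with 479 and 72.3, was the 1 gene more than 2-fold lower. Neither array measured their defining marker Myh11 well above background.

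Hmox1 is highly made by macrophages that take up red cells, so macrophage markers are given beside it. Of 10 such genes 7 had a value, 1 of which, Mrc1, was more than 2-fold higher (at least 4.31-fold) and 0 were lower by that much. Their summed signal was 14361 and 19930, and its direction rested on Cd14 (8483 and 15582): without Cd14 the other 6 summed to 5878 and 4348. The defining markers Adgre1, Cd163 and Lyz2 were not well above background on either array, and Csf1r had 4874 and 2817. The part of these shifts in cell type markers in the ratios of the 10 genes was not tested.

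**Figure D5:**
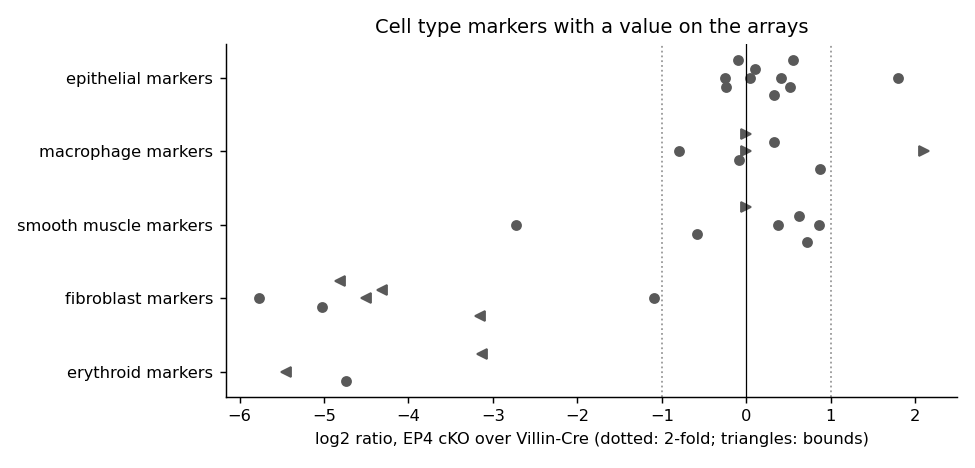
Log2 ratio (horizontal axis) of the cell type markers with a value on the arrays, by list, with 2-fold as dotted lines and triangles for bounds. The fibroblast and erythroid markers lie at or below -1.09, whereas 9 of the 10 epithelial markers lie within 2-fold and Krt20 lies at 1.80.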

How the data were processed

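RNA of whole colon, combined from 3 pools per genotype, was measured on 1 Agilent mouse array for Villin-Cre and 1 for EP4 cKO (the methods give n = 3 per genotype). The authors deposited the intensities from the scanner's own program (Feature Extraction 12.0.3.1 per the file headers, 11.5.1.1 per the submitters' processing notes), with the background subtracted and not normalized between arrays. Here, control spots were dropped, as were spots that the software called outliers, spots of a probe were averaged (56593 probes), and each array was scaled to a trimmed mean of 2500 (2% of the probes removed at each end; factors 3.45 and 2.68). No spot was saturated. Signal well above background was found for 45.4% (labelled Villin-Cre) and 51.6% (labelled EP4 cKO) of the probes. A probe dim on 1 array was set there to its own signal or the floor, whichever was higher (125 for Villin-Cre, 57.8 for EP4 cKO), and where that bound did not pass 1 the log2 ratio was taken as 0. Each gene is given by its brightest probe with a value. Accessions were matched to RefSeq genes of GRCm38.p6, which named 32989 probes (58.3%); the arrays' grid refers to an older assembly, so the only coordinates given are those of the RefSeq promoter windows, in GRCm38.p6. The number of arrays limits the precision.

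No test was made, as each genotype had 1 array. Lists are described by counts and medians. The 10 genes, the lists and the rule for naming (all probes of the 10 genes; in each list up to 3 genes past 2-fold, or else the gene with the largest change) were chosen with earlier results of these data known. Gsta3, Nfe2l2, Keap1 and the markers named lie outside that rule and were named after their values were seen. The alternatives were scaling to the 75th percentile, to a trimmed mean over all spots or to the E1A control spots, normexp (offset 50, on the median signal, since the mean signal was not used here) with quantile normalization, loess (span 0.3), filters on dim probes, averaging the probes of each gene, and thresholds of 1.5-fold and 3-fold. The E1A scaling used the median over 324 spots of 10 control probes, bright and dim, whose unscaled log2 ratio was -0.53; the 7 of these probes well above background in all spots had -0.78 to -0.56, so values on this scale carry that uncertainty. The steps were tested on simulated data. Software was limma 3.58.1 in R 4.3.3, and matplotlib 3.10.9, statsmodels 0.14.6, pandas 2.3.3 and numpy 2.4.6 in Python 3.11.15.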

Additional observations from a re-analysis of the deposited data

How the results depend on the processing

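Of 128 values recomputed under 10 alternatives, none reversed and 104 moved by less than the error of a ratio or, for counts, by at most 1.5 times. All 13 probes of the 10 genes were well above background on both arrays, so changing the filter on dim probes could not move their values. Some values outside the 128 did change sign with the E1A spots. The brighter probe of Ptger4 went from -0.14 to 0.76, and the median of the superoxide dismutases from -0.17 to 0.73. Of the 10 genes, the number more than 2-fold higher was 0, and it was 1 (Srxn1) with scaling to the 75th percentile (6.42% of all genes) and 1 with a trimmed mean over all spots (6.00%), 3 at a threshold of 1.5-fold (9.86%) and 10 with the E1A control spots (29.5%). The last setting raised the median of the 10 genes to 1.15 and their log2 ratios to 1.49 (Nqo1), 1.57 (Hmox1), 1.16 (Gclc), 1.11 (Gclm), 1.13 (Txnrd1), 1.82 (Srxn1), 1.05 (Prdx1), 1.11 (Gpx1), 1.17 (Gpx2) and 1.05 (Gpx4), and it raised the median of all genes well above background on both arrays by 0.90. After normexp with quantile normalization Prdx1 was at 0.37 and Gpx2 at 0.49, and after loess Hmox1 was at 0.91; the cause was not tested. Of the wider pathway, 5 genes were more than 2-fold higher: 3 when both arrays had to measure a gene well above background (4.05% of all genes), 34 with the E1A spots (29.5%), 10 at 1.5-fold (9.86%) and 2 at 3-fold (2.21%). The number more than 2-fold lower, 0, was 2 (Aox1 and Gpx8, not well above background on either array) with dim probes kept (31.7% of all genes) and 5 at 1.5-fold (18.7%). With a lone array in each group none could be left out, and no paired analysis was possible because there was 1 array per genotype. Probes under the floor of an array, such as those of Me1 and Chac1 for Villin-Cre, give only bounds.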
